A study of Mus musculus with 9 samples.

Results

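The BCL2 family, caspase-8 and gasdermin E decide whether a stressed or attacked cell dies and in which form. The genes described are Bcl2, Bcl2l1, Mcl1, Bax, Bak1, Bid, Bcl2l11, Casp8 and Gsdme, chosen by gene symbol as regulators and executors of cell death. All 9 were found among the 10762 genes of the deposited table. They were measured by RNA sequencing in B16.SIY, a cultured mouse melanoma line of C57BL/6 background that carries the SIY peptide antigen linked to dsRED. The 9 libraries formed 3 groups of 3, which were cells with the hairpin Decr2 shRNA1, cells with the hairpin Decr2 shRNA2, and cells with a control hairpin (SHC002). Every group, control included, had been infected with lentivirus and selected with puromycin as a stable line, kept in DMEM with fetal calf serum. The labels give a single stable line per hairpin by name, and the series title speaks of tumors while the samples are described as cultured cells. Nothing in the labels tells whether replicates 0, 1 and 2 came from separate cultures. The p-values therefore rest on library spread that could be technical.

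Apoptosis through mitochondria is set by the balance within the BCL2 family. Survival proteins (Bcl2, Bcl2l1 and Mcl1) bind and restrain the pore formers Bax and Bak1, and BH3-only proteins such as Bid and Bcl2l11 release that restraint or activate the pore formers directly. Casp8 is the initiator caspase of death receptors and cleaves Bid, and granzyme B from cytotoxic lymphocytes cleaves Bid as well. Gsdme is cut by granzyme B, among other proteases, and its freed N-terminal part opens pores in the plasma membrane, which turns apoptosis into lytic death. In melanoma cells, Mcl1 and Bcl2l1 are known as survival factors and Bcl2l11 as a target of the MAPK pathway.

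Of the 9 genes, Gsdme fell with each Decr2 hairpin, Mcl1 fell with shRNA1 and in the average of both hairpins, and Casp8 rose in the average only. In the average these levels were 75.2%, 82.7% and 117% of the control level for Gsdme, Mcl1 and Casp8. Bcl2 was lower in all 6 hairpin libraries but did not pass the test, and Bcl2l1, Bax, Bak1, Bid and Bcl2l11 did not pass in any comparison. The test was limma across all genes, and a gene counted as called at a Benjamini-Hochberg adjusted p under 0.05. Over all genes 12.4% were called with shRNA1, 12.9% with shRNA2 and 17.6% in the average. No gene of the 9 was called between shRNA2 and shRNA1, where 0.455% of all genes were.

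The hairpin and control libraries matched their labels in Decr2 level. Which hairpin group is shRNA1 rests on the authors' headed fold changes, and the Decr2 level cannot show it. Decr2, the peroxisomal 2,4-dienoyl-CoA reductase targeted by the hairpins, averaged a log2 value of 2.85 ± 0.34 with shRNA1, 1.19 ± 0.36 with shRNA2 and 3.92 ± 0.19 with the control hairpin (SD, n = 3 each), which left 47.6% and 15.0% of the control level. Of the melanocyte markers, 7 of 7 were listed (Mlana, Pmel, Tyr, Tyrp1, Dct, Sox10 and Mitf). Their summed linear level ran from 13068 to 18446 with shRNA1, from 12976 to 22371 with shRNA2 and from 17041 to 19339 with control, and none was called in the average of both hairpins. All 7 had a negative log2 fold change there (median -0.24), and their part in the results below was not tested. Of 13 immune, 7 fibroblast, 5 endothelial and 6 keratinocyte markers, 1, 2, 1 and 0 were listed, none was called in the average, and no such list summed to a linear level above 15.8 in any library. The deposited values are log2 levels scaled to a common total. They compare libraries for a given gene but not genes with each other, since they are not stated to be per length, and the read totals are unknown. A lower bulk value does not tell fewer expressing cells from less RNA per cell.

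The promoters of the 3 called genes are shown because Gsdme and Mcl1 fell together while Casp8 moved the other way. Each sequence is the 250 bases before the RefSeq start on GRCm38.p6, read on the strand of the gene, with matches to the motifs searched in capitals. The windows are chr6:50261770-50262019 on the minus strand for Gsdme, chr3:95658471-95658720 on the plus strand for Mcl1 and chr1:58802252-58802501 on the plus strand for Casp8. Gsdme and Casp8 have further annotated starts outside these windows. The RefSeq start of Mcl1 lies upstream of its GENCODE start, and the bases that follow it were not found in the GENCODE transcripts, so distances to the Mcl1 start hold for the RefSeq start only.
Gsdme: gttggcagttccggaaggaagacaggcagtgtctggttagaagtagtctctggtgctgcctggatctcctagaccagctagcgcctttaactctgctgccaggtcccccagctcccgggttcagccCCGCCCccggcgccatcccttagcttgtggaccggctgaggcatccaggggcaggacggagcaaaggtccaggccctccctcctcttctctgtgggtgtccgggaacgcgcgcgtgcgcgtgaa
Mcl1: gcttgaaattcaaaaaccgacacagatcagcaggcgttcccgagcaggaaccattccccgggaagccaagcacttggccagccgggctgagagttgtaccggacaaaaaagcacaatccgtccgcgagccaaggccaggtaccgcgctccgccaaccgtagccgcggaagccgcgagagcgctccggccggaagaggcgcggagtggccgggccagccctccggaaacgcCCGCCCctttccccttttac
Casp8: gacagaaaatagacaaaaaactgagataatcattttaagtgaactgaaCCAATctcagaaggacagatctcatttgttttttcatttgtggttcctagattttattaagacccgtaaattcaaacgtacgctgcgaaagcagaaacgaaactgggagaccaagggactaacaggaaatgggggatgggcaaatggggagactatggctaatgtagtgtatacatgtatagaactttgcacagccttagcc

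The Gsdme and Mcl1 windows were 64% and 64.4% GC, against 39.6% for Casp8. GC content was not computed for the other members or for all windows, and its relation to the direction of change was not tested. The Gsdme and Casp8 windows lie inside the annotated spans of their genes. Gsdme held a GC box (GGGCGG, here as CCGCCC on the printed strand) between 124 and 119 bases before the start, and Mcl1 held one between 20 and 15 bases before it. Casp8 held no GC box and a CCAAT box (CCAAT) between 202 and 198 bases before the start. Both strands were searched, and of 32851 promoter windows of this length 32.7% held the GC box and 33.8% the CCAAT box. Over the 9 genes, 6 held the GC box (Bcl2, Mcl1, Bax, Bid, Bcl2l11 and Gsdme) and 2 the CCAAT box (Bcl2l11 and Casp8). Bax alone held the E-box CACGTG, present in 6.02% of windows. None of the 9 windows held TATAAA (12.4% of windows), the STAT motif TTCNNNGAA (7.02%), the ATF4 composite motif TGATGNAA (3.45%) or the ER stress element (0.113%), which contains the CCAAT box. These are matches of letters in these windows only.

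Gsdme, the pore former of lytic death, changed most among the 9 genes. Its log2 values were 4.27, 4.34 and 4.49 with shRNA1 and 4.46, 4.28 and 4.36 with shRNA2, against 4.78, 4.73 and 4.82 with the control hairpin, in the order of replicates 0, 1 and 2. All 6 hairpin libraries lay below the 3 controls, and the hairpin groups overlapped each other. The log2 fold change was -0.41 with shRNA1 (SE 0.09, limma adjusted p = 0.0219) and -0.41 with shRNA2 (SE 0.09, adjusted p = 0.0216), or 75.2% of control with either hairpin (95% intervals 65.2% to 86.7% in both). In the average of both hairpins it was again -0.41 (SE 0.08, adjusted p = 0.00962), and the 95% interval of the level was 66.5% to 85.0%. Within replicate numbers, the difference from control ran from -0.51 to -0.33 with shRNA1 and from -0.46 to -0.32 with shRNA2. The difference between the lines was 0.00 on the log2 scale (95% interval -0.20 to 0.21), and that of Decr2 was -1.66. A relation of the Gsdme level to the Decr2 level was not tested. In the authors' deposited table Gsdme was also called, with adjusted p-values of 0.0234 with shRNA1 and 0.0209 with shRNA2. With shRNA1, Gsdme no longer passed without control replicate 1 (0.0702) or 2 (0.0929), without the shRNA1 library numbered 1 (0.0626), or with only the groups compared (0.0514). With shRNA2 it did not pass without control replicate 1 (0.0667) or 2 (0.0897), or shRNA2 replicate 1 (0.0826) or 2 (0.0761). In the average of both hairpins the call was lost without control replicate 2 (0.0569) and held in the other 14 alternatives. The Gsdme log2 fold change itself, with 1 library left out, ran from -0.474 to -0.362 with shRNA1. It ran from -0.459 to -0.369 with shRNA2.

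Gsdme (ENSMUSG00000029821) codes for protein and runs from 50188888 to 50263862 on chromosome 6 of GRCm38, minus strand. Its annotated span overlaps Mpp6 on the other strand, and the strand setting of the counting is not given in the sources used here. Mpp6 had a log2 fold change of -0.15 in the average (adjusted p = 0.551), at 0.06 with shRNA1 and -0.36 with shRNA2.

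**Figure D1:**
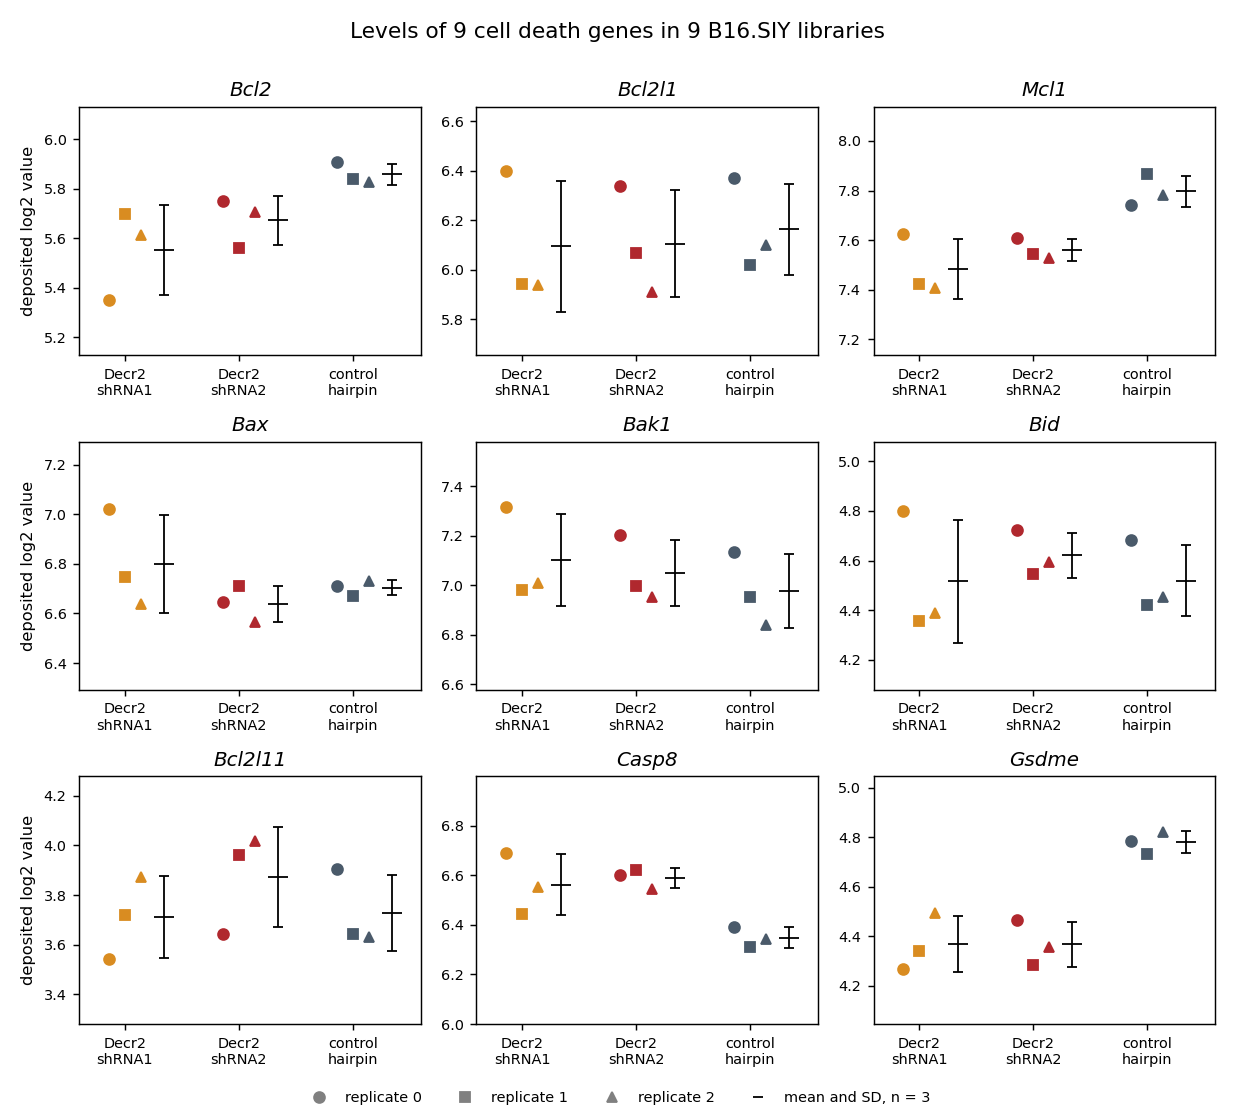
Deposited log2 value of each gene (vertical axis, each panel spanning 1 log2 unit) in the Decr2 shRNA1, Decr2 shRNA2 and control hairpin libraries, with the marker shape giving the replicate number and the bar the mean and SD of 3. Hairpin libraries lie below all controls for Bcl2, Mcl1 and Gsdme and above them for Casp8, and replicate 0 stands highest in every group for Bcl2l1, Bak1 and Bid.

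Among the survival genes, Mcl1, whose short-lived protein holds Bak1 and Bcl2l11 in check, was the only member called lower. Bcl2 was lower by a similar amount in the average (-0.25 against -0.27) without passing. Its log2 values were 7.62, 7.42 and 7.41 with shRNA1 and 7.61, 7.54 and 7.53 with shRNA2, against 7.74, 7.87 and 7.78 with the control hairpin. All 6 hairpin libraries lay below the controls, with a log2 gap of 0.12 between the highest hairpin library and the lowest control. Mcl1 fell by 0.31 on the log2 scale with shRNA1 (SE 0.08, limma adjusted p = 0.0339) and by 0.27 in the average of both hairpins (SE 0.07, adjusted p = 0.0245). The average corresponds to 82.7% of control (95% interval 74.3% to 91.9%). With shRNA2 alone its log2 fold change of -0.24 (SE 0.08) missed the threshold (adjusted p = 0.0799), and it passed with the replicate block, a fit with the replicate number as a term (0.0487). The difference from the control of the same number ran from -0.44 to -0.12 with shRNA1 and from -0.32 to -0.13 with shRNA2. The difference between the lines was 0.08 (95% interval -0.10 to 0.25). The authors' deposited table gave adjusted p-values of 0.0363 with shRNA1 and 0.0831 with shRNA2.

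The Mcl1 calls rested on several libraries. Leaving out any control, shRNA1 replicate 1 or 2, or shRNA2 replicate 1 or 2 ended the call with shRNA1, at adjusted p-values between 0.0509 and 0.136, as did fitting only the groups compared (0.0800). The Mcl1 log2 fold change with shRNA1 stayed between -0.383 and -0.273 when 1 library was left out. Without shRNA2 replicate 1 or 2 it was unchanged at -0.312, since those libraries enter only the spread and the adjustment. The average of both hairpins was no longer called without control replicate 1 (0.127) or 2 (0.0933), shRNA1 replicate 2 (0.0509), or shRNA2 replicate 1 (0.0543) or 2 (0.0569). Without shRNA1 replicate 0, Mcl1 passed with shRNA2 (0.0210). Mcl1 (ENSMUSG00000038612) lies on the plus strand of chromosome 3, from 95658788 to 95663176.

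Bcl2, the founding survival gene of the family, had log2 values of 5.35, 5.70 and 5.61 with shRNA1 and 5.75, 5.56 and 5.71 with shRNA2, against 5.91, 5.84 and 5.83 with the control hairpin. Every hairpin library was below every control, by at least 0.078. The log2 fold change was -0.31 with shRNA1 (SE 0.10, limma adjusted p = 0.0801), -0.19 with shRNA2 (SE 0.10, adjusted p = 0.255) and -0.25 in the average (SE 0.09, adjusted p = 0.0811), so no comparison passed. The SD was 0.18 with shRNA1 and 0.10 with shRNA2, against 0.04 with the control hairpin, and shRNA1 replicate 0 was the lowest library. Without the 3 libraries numbered 0 the average was -0.19 and passed (adjusted p = 0.0404), as did 41.4% of all genes. Bcl2 (ENSMUSG00000057329) spans 106538178 to 106714274 on the minus strand of chromosome 1. That span overlaps Gm37053 and Mir3473f on the same strand and D630008O14Rik on the other, none of them listed.

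Bcl2l1, which encodes the survival protein BCL-XL, showed no such separation. Its log2 values were 6.40, 5.94 and 5.94 with shRNA1 and 6.34, 6.07 and 5.91 with shRNA2, against 6.37, 6.02 and 6.10 with the control hairpin. The groups overlapped, and replicate 0 was the highest library of each. The log2 fold change in the average was -0.06 (SE 0.14, 95% interval -0.37 to 0.24, limma adjusted p = 0.789), so a change in level to between 77.3% and 118% of control lies within the interval. Bcl2l1 (ENSMUSG00000007659) spans 152780668 to 152831728 on the minus strand of chromosome 2.

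The pore formers of the outer mitochondrial membrane were not called. Bax had log2 values of 7.02, 6.75 and 6.64 with shRNA1 and 6.64, 6.71 and 6.56 with shRNA2, against 6.71, 6.67 and 6.73 with the control hairpin. Those 3 groups overlapped, and the log2 fold change in the average was 0.02 (SE 0.09, 95% interval -0.18 to 0.21, limma adjusted p = 0.922). Between the lines Bax stood at -0.16 for shRNA2 over shRNA1 (95% interval -0.38 to 0.06, adjusted p = 0.683). Bak1, the other pore former, had log2 values of 7.32, 6.98 and 7.01 with shRNA1 and 7.20, 6.996 and 6.95 with shRNA2, against 7.13, 6.95 and 6.84 with the control hairpin. Each hairpin library of Bak1 exceeded the control of its own replicate number, by between 0.03 and 0.18, while the groups overlapped. Both hairpins use the same controls there, and the share of all genes with that pattern was not counted. The average log2 fold change of Bak1 was 0.10 (SE 0.10, 95% interval -0.13 to 0.33, adjusted p = 0.540). The annotated span of Bak1 overlaps Ggnbp1 on the other strand, which rose by 0.99 in the average (adjusted p = 0.0396), and the strand setting of the counting is unknown here too. Bax (minus strand, 45461697 to 45466898) is on chromosome 7 and Bak1 (minus strand, 27019810 to 27029009) on chromosome 17. The span of Bax overlaps Gm45808, a protein-coding gene on the same strand that was not listed, so their reads could be shared.

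The BH3-only members were not called either. Bid, the substrate of caspase-8 and granzyme B, had log2 values of 4.80, 4.36 and 4.39 with shRNA1 and 4.72, 4.55 and 4.59 with shRNA2, against 4.68, 4.42 and 4.45 with the control hairpin. Its average log2 fold change was 0.05 (SE 0.12, 95% interval -0.21 to 0.31, limma adjusted p = 0.807). The groups overlapped. The annotated span of Bid overlaps Bcl2l13 on the other strand, which was not called (-0.04 in the average). Bcl2l11, which encodes BIM, had log2 values of 3.54, 3.72 and 3.87 with shRNA1 and 3.64, 3.96 and 4.02 with shRNA2, against 3.90, 3.64 and 3.63 with the control hairpin. The Bcl2l11 libraries numbered 1 and 2 stood above the control of their number by 0.08 and 0.24 with shRNA1 and by 0.32 and 0.39 with shRNA2, whereas those numbered 0 stood at -0.36 and -0.26. Both differences at number 0 use the same control library. Over all libraries the average was 0.07 (SE 0.12, adjusted p = 0.754), and without the libraries numbered 0 it was 0.25 (adjusted p = 0.0437), with shRNA2 alone at 0.35 (adjusted p = 0.0246). Without those libraries 41.4% of all genes were called in the average and 37.3% with shRNA2. Bid lies on chromosome 6 (minus strand, 120891930 to 120916853) and Bcl2l11 on chromosome 2 (plus strand, 128126038 to 128162547).

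**Figure D2:**
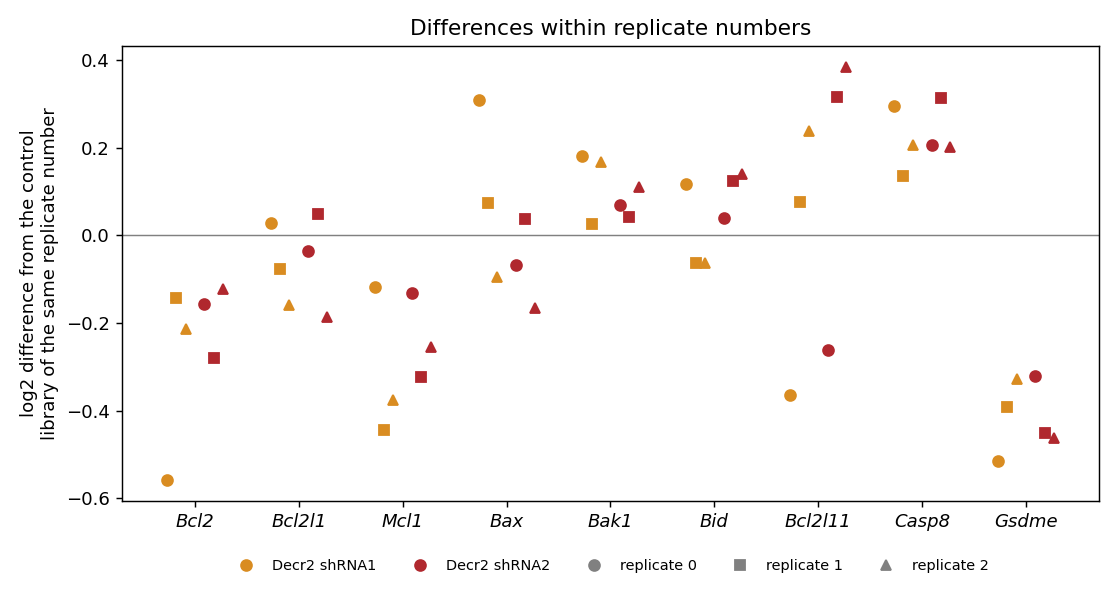
Log2 difference between each Decr2 hairpin library and the control library of the same replicate number (vertical axis), with colour for the hairpin and shape for the number. All 6 differences are negative for Bcl2, Mcl1 and Gsdme and positive for Bak1 and Casp8, and those of Bcl2l11 are negative at number 0 and positive at numbers 1 and 2. Each control library enters the differences of both hairpins, and the share of all genes with the same sign throughout was not counted.

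Casp8, the initiator caspase, had log2 values of 6.69, 6.45 and 6.55 with shRNA1 and 6.60, 6.62 and 6.55 with shRNA2, against 6.39, 6.31 and 6.34 with the control hairpin. All 6 hairpin libraries lay above the controls, by at least 0.053, and within replicate numbers by 0.14 to 0.30 with shRNA1 and 0.20 to 0.31 with shRNA2. Casp8 rose by 0.23 in the average of both hairpins (SE 0.07, limma adjusted p = 0.0453), to 117% of the control level (95% interval 105% to 130%). The log2 fold change was 0.21 with shRNA1 (SE 0.08, adjusted p = 0.106) and 0.24 with shRNA2 (SE 0.08, adjusted p = 0.0713), and with the replicate block that of shRNA2 passed (0.0390). The call in the average stood close to the threshold. It was lost without any of the controls, shRNA1 replicate 2 or any shRNA2 library, at adjusted p-values between 0.0686 and 0.179, with libraries centred on their medians (0.0626) and without the intensity trend (0.0594). The difference between the lines was 0.03 (95% interval -0.15 to 0.20). Casp8 (ENSMUSG00000026029) lies on the plus strand of chromosome 1, from 58795374 to 58847503. That span overlaps Gm37760 on the same strand, which was not listed.

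Counted by comparison, 0 members rose and 2 fell with shRNA1, where 6.92% of all genes were called higher and 5.49% lower. With shRNA2, 0 rose and 1 fell, against 7.27% higher and 5.67% lower over all genes. In the average of both hairpins 1 rose and 2 fell, against 9.69% and 7.89%. Gsdme was the 1 member called lower with each hairpin, as were 3.01% of all genes. All 6 hairpin libraries lay below the control range in 3 members (10.9% of all genes) and above it in 1 member (12% of all genes). Both hairpins are set against the same control libraries. The median member had a log2 fold change of -0.02 with shRNA1, -0.06 with shRNA2 and 0.02 in the average, against 0.0018, 0.0046 and -0.00057 over all genes. The members' changes in the average ran from -0.41 for Gsdme to 0.23 for Casp8.

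**Figure D3:**
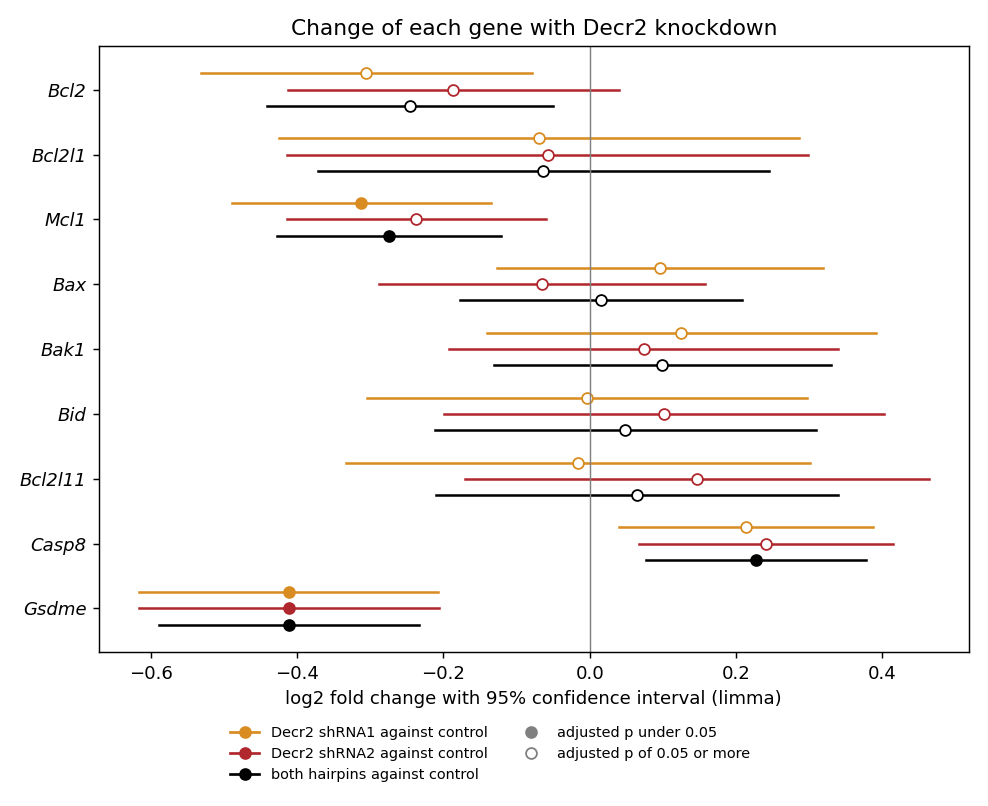
Log2 fold change of each gene (horizontal axis) with its 95% confidence interval from limma, for Decr2 shRNA1, Decr2 shRNA2 and the average of both against the control hairpin, filled where the adjusted p was under 0.05. Filled points are those of Gsdme in all 3 comparisons, Mcl1 with shRNA1 and in the average, and Casp8 in the average.

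Between shRNA2 and shRNA1, which differ in remaining Decr2, 0 of the 9 members were called by limma, against 0.455% of all genes, and 0 members had an unadjusted p under 0.05, where 10% of all genes did. The log2 differences ran from -0.16 for Bax to 0.16 for Bcl2l11, and the 95% intervals of all 9 included 0. The widest was that of Bcl2l1, from -0.34 to 0.37, and the narrowest that of Casp8. A missed threshold does not show that the lines were alike for these genes.

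The order of the 3 groups by mean differed between genes. For Bcl2, Bcl2l1, Mcl1 and Gsdme the control was highest, and for Bak1 and Casp8 it was lowest. For Bax, Bid and Bcl2l11 it lay between the hairpin groups. Gsdme averaged 4.37 ± 0.11 with shRNA1, 4.37 ± 0.09 with shRNA2 and 4.78 ± 0.04 with control (SD, n = 3 each), so that the hairpin lines were neighbours without a difference beyond their spread. For Mcl1 the means were 7.48 ± 0.12, 7.56 ± 0.04 and 7.80 ± 0.06 in the same groups. Casp8 averaged 6.56 ± 0.12 with shRNA1, 6.59 ± 0.04 with shRNA2 and 6.35 ± 0.04 with control, where the hairpin lines again differed by less than their SD. For Bcl2l1, Bax, Bak1, Bid and Bcl2l11 no neighbours in the order differed beyond their spread.

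The replicate number moved with several members. Bcl2l1, Bak1 and Bid were each higher in all 3 libraries numbered 0 than in the other 6, a pattern held by 8.03% of all genes. For Bcl2l1 the libraries numbered 0 lay between 6.34 and 6.40 and the others between 5.91 and 6.10. Bak1 lay between 7.13 and 7.32 in those numbered 0 and between 6.84 and 7.01 in the others, and Bid between 4.68 and 4.80 against 4.36 to 4.59. The labels do not say what the number stands for. Deviations from the group means of Bcl2l1 and Bak1 followed each other across the 9 libraries (Pearson r = 0.942). Those of Bcl2l1 and Bid (r = 0.924) and of Bak1 and Bid (r = 0.925) did so as well. These are 9 libraries that share the replicate numbers. The genes were grouped by their higher values at number 0, which the deviations keep, so a high r followed from that choice.

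Likeness across the 9 libraries was described by Pearson r of log2 values among genes above the median level, and the libraries share groups and replicate numbers. The genes closest to Gsdme were Hsp90b1, an ER chaperone (r = 0.984, log2 fold change -0.66 in the average), and Eif2ak3, which encodes the ER stress kinase PERK (r = 0.981, -0.15). Mcl1 was closest to Diaph1, an actin nucleator (r = 0.972, -0.33), and to Vdac2, a channel of the outer mitochondrial membrane (r = 0.965, -0.14). Casp8 was closest to Rnaset2b (r = 0.974, 0.33) and to Lipa, the lysosomal acid lipase (r = 0.970, 0.35). These genes were picked for following members that themselves differ between the groups, so their fold changes are a description only. Bcl2 was closest to Slc39a9 (r = 0.981) and to Chordc1 (r = 0.976). For Bcl2l1 they were Scp2 (r = 0.977) and Plekho2 (r = 0.975), and for Bax they were R3hdm4 (r = 0.962) and Rplp1 (r = 0.952). Bak1 was closest to Esd (r = 0.982) and Gm2a (r = 0.972), and Bid to Dgkz (r = 0.971) and Insig1 (r = 0.968). Bcl2l11 had the weakest closest genes, Rab18 (r = 0.940) and Ccn4 (r = 0.917).

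Of 78 other genes of cell death, 48 were in the table. In the average of both hairpins 5 of the 48 rose and 2 fell, against the 9.69% and 7.89% of all genes given above, and their median log2 fold change was 0.03. With shRNA1 3 rose and 2 fell (6.92% and 5.49% of all genes), and with shRNA2 1 rose and 0 fell (7.27% and 5.67%). By limma with shRNA2, 14 of the 48 had an unadjusted p under 0.05, as did 29.3% of all genes, so this share was that of the table. With the replicate block 11 rose and 4 fell in the average, where 16.2% of all genes rose and 14.1% fell. With shRNA1 the blocked counts were 7 and 3 (13.4% and 11.2% of all genes), and with shRNA2 they were 8 and 2 (13.4% and 10.6%).

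Bcl2l2, which encodes the survival protein BCL-W, rose with each hairpin and was the 1 gene measured of 5 further survival genes. Its log2 values were 5.12, 5.21 and 5.18 with shRNA1 and 5.02, 4.98 and 5.15 with shRNA2, against 4.51, 4.38 and 4.54 with the control hairpin. All 6 hairpin libraries lay above the controls, by at least 0.44 on the log2 scale. Bcl2l2 rose by 0.69 with shRNA1 (SE 0.08, limma adjusted p = 0.00245), 0.57 with shRNA2 (SE 0.08, adjusted p = 0.00479) and 0.63 in the average (SE 0.07, adjusted p = 0.00144). It stayed called in all 15 alternatives run for the average. Its annotated span overlaps Gm20521 on the same strand, so reads of Bcl2l2 and Gm20521 could be shared. Bcl2l2 thus moved opposite to Mcl1 among the survival genes.

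Among other BH3-only and related genes 1 of 5 rose. Bnip3l, a mitophagy receptor, rose by 0.33 with shRNA1 (limma adjusted p = 0.0261) and 0.27 in the average (0.0231), and stood at 0.22 with shRNA2 (0.0971). Bbc3, which encodes PUMA and was chosen after its values were seen, had a log2 fold change of 0.95 in the average (SE 0.31) without passing (adjusted p = 0.0644), and it passed with the replicate block (0.00351). Its values were 3.03, 3.30 and 3.50 with shRNA1 and 2.78, 3.78 and 3.58 with shRNA2, against 1.56, 2.79 and 2.78 with the control hairpin. The groups overlapped, with shRNA2 replicate 0 just under control replicates 1 and 2. Within replicate numbers each hairpin library of Bbc3 was higher than its control, a pattern whose share over all genes was not counted. Of the divergent relatives, Bcl2l12 stood at 0.22 in the average (0.177) and Bcl2l13 at -0.04 (0.832).

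Of the other caspases 1 of 4 rose. Casp6, an executioner caspase, rose by 0.44 in the average (SE 0.13, limma adjusted p = 0.0480), with log2 fold changes of 0.43 with shRNA1 (0.103) and 0.46 with shRNA2 (0.0818), both of which passed with the replicate block (0.0141 and 0.0111). Of the other pore formers 1 of 4 rose. Gsdmd, the gasdermin of inflammasome pyroptosis, rose by 0.90 in the average (SE 0.26, adjusted p = 0.0414) and had a mean log2 value at percentile 0.455 of all genes, near the bottom of the table. With shRNA2 alone Gsdmd stood at 1.04 (0.0502) and passed with the replicate block (0.0438). Its values were 0.66, 0.62 and 1.21 with shRNA1 and 0.96, 1.21 and 1.16 with shRNA2, against 0.13, 0.41 and -0.33 with the control hairpin.

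Of 9 genes of death receptor complexes 1 rose and 1 fell. Tnfrsf1a, the main TNF receptor, rose by 0.45 with shRNA1 (SE 0.08, limma adjusted p = 0.00950) and 0.35 in the average (SE 0.07, 0.00942), and it stood at 0.26 with shRNA2 (0.0594), which passed with the replicate block (0.0404). Ripk1, the kinase that joins TNF receptor signalling to death, fell by 0.38 with shRNA1 (SE 0.09, 0.0316) and by 0.33 in the average (SE 0.08, 0.0224), and stood at -0.29 with shRNA2 (0.0724), which passed with the replicate block as well (0.0377). For Tnfrsf1a and Ripk1 all 6 hairpin libraries lay outside the control range, above it and below it in that order. Fbxw7, the ubiquitin ligase subunit that marks Mcl1 protein for degradation, fell by 0.55 with shRNA1 (SE 0.12, 0.0232) and by 0.38 in the average (SE 0.11, 0.0403), and it stood at -0.20 with shRNA2 (0.315). It was the 1 gene called of 10 in the list of turnover factors and membrane partners. None of 8 apoptosome genes was called by limma in the average. Aifm1, the apoptosis-inducing factor, had the smallest adjusted p there (-0.19, 0.0728), followed by Dffa, the inhibitor of the caspase-activated nuclease (-0.25, 0.104). None of 5 genes of inhibitor of apoptosis proteins was called, with Naip2 at 0.79 (0.0699, or 0.0367 with the replicate block, which passed) and Birc5, which encodes survivin, at -0.16 (0.235); Naip2 has close paralogs that could share its reads.

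Apart from Bcl2l2, these calls depended on single libraries. Without control replicate 1 or 2, 1 of the 48 genes was called in the average. The share of all genes called was then 5.72% and 5.86%, against 17.6% with all libraries. The calls of Casp6 held in 4 of 14 alternatives and those of Gsdmd in 6 of 14. For Fbxw7 it was 9 of 15, for Bnip3l 11 of 15, for Ripk1 12 of 15 and for Tnfrsf1a 13 of 15.

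**Figure D4:**
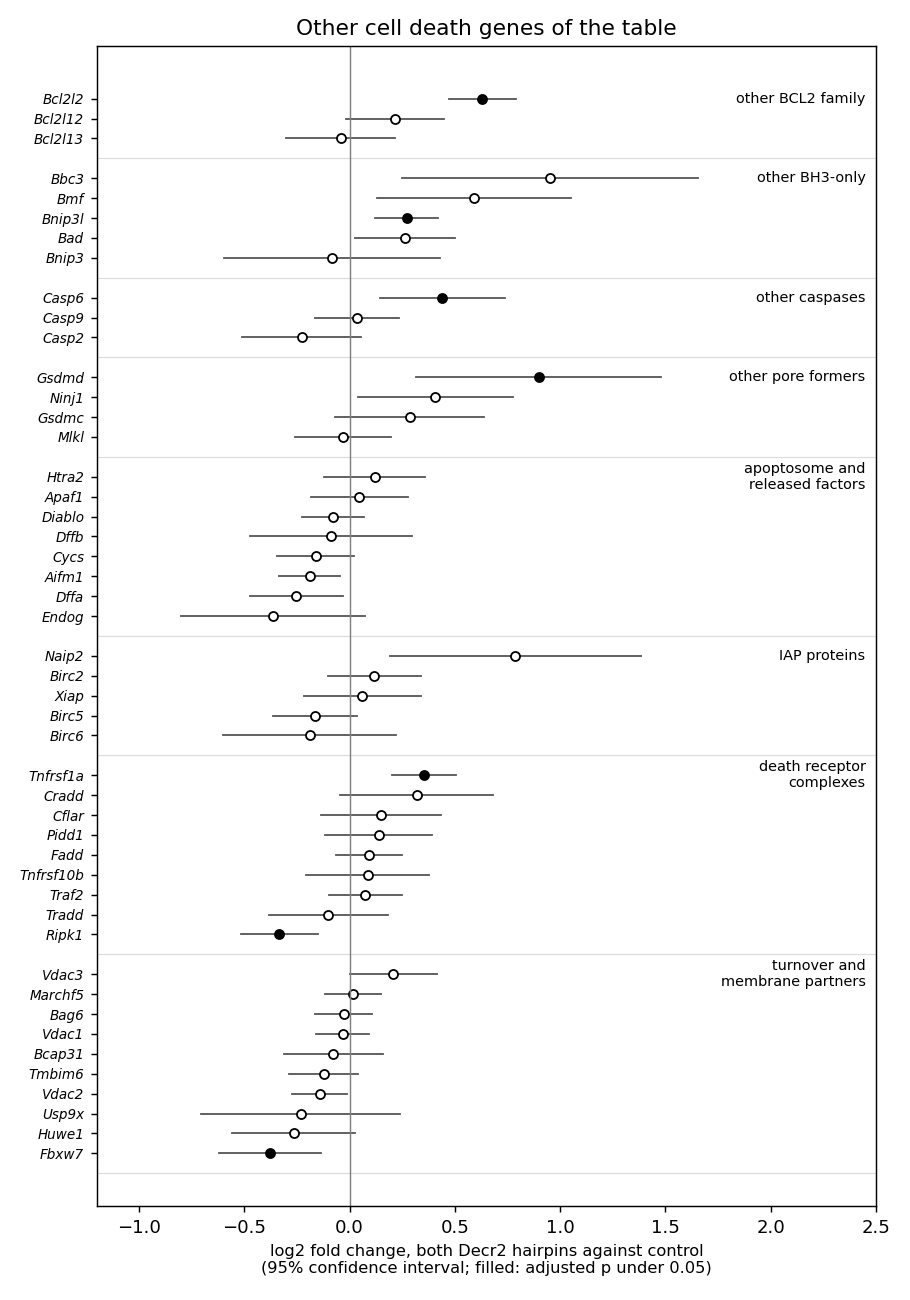
Log2 fold change of 47 of the other cell death genes in the average of both Decr2 hairpins against control (horizontal axis) with 95% confidence intervals from limma, grouped by role and filled where the adjusted p was under 0.05. Filled points are Bcl2l2, Bnip3l, Casp6, Gsdmd and Tnfrsf1a above 0 and Ripk1 and Fbxw7 below it.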

How the data were processed

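Messenger RNA levels came from 1 deposited table of 10762 genes and 9 libraries of cultured B16.SIY cells, grouped by the sample titles. The authors deposited log2 values scaled to a common total, and per the submitters' processing notes kallisto, FastQC and limma were used. The sources used here do not give versions, genome build, annotation, strand setting or filters. The authors' log2 fold changes, t scores and p-values, deposited in the same table, were used only where named. Column codes do not name the Decr2 hairpin. The fold changes headed shRNA1 lay within 0.05 of the columns assigned to shRNA1 in 99.95% of genes, and for shRNA2 this share was 99.7%; if the headings were exchanged, so would the hairpin names be.

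Limma 3.58.1 in R 4.3.3 was run on all 10762 genes and 9 libraries with a mean per group and an intensity trend (3.30 prior and 6 residual degrees of freedom), 2-sided, with Benjamini-Hochberg adjustment over all genes and no filter or pseudocount. The script was tested on simulated data. Errors are SE from this fit, or SD of 3 libraries, and precision rests on library spread because read totals are unknown. Figures used matplotlib 3.10.9. Coordinates are those of GENCODE M21 on GRCm38, and promoters those of RefSeq on GRCm38.p6, with 9 of 9 genes matched by symbol. Same-numbered libraries deviated together from their group means in all 9 pairs (r from 0.126 to 0.644, against -0.629 to 0.531 in 18 other pairs). Libraries numbered 1 and 2 of different groups also deviated together (r from 0.128 to 0.531). Only number 0 stood apart, and a pairing within numbers 1 and 2 is not shown. The replicate block nevertheless treats all 3 numbers as pairs, and it is given beside a named gene where it changed a call.

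The value of 1 further gene of these lists is not reported here. Members and lists were chosen with earlier results of these data known. Named genes were all members, the called genes of each further list (failing that, the 2 with the smallest adjusted p), and the 2 genes most correlated with each member. Alternatives were the replicate block, only the groups compared, no trend, the lowest 25% of genes removed, centred libraries, 1 added on the linear scale, each library left out, and the libraries numbered 0 left out.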

Additional observations from a re-analysis of the deposited data

How the results depend on the processing

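The limits below concern the number of members called, which was 2 with shRNA1, 1 with shRNA2, 3 in the average of both hairpins and 0 between the lines. Leaving out 1 library gave 0 to 2 called members with shRNA1, 0 to 3 with shRNA2, 0 to 3 in the average and 0 between the lines; the counts of 0 arose without control replicate 1 or 2, or shRNA1 replicate 1, with shRNA1, without control replicate 1 or 2, or shRNA2 replicate 1 or 2, with shRNA2, and without control replicate 2 in the average. The share of all genes called fell in these fits as well. With shRNA1 it was 3.15%, 3.05% and 7.02% without control replicate 1, control replicate 2 or shRNA1 replicate 1. With shRNA2 it was 3.88%, 3.77%, 4.01% and 4.38% without control replicate 1 or 2, or shRNA2 replicate 1 or 2. In the average it was 5.86% without control replicate 2. With only the groups compared the member counts were 0 with shRNA1 and 3 with shRNA2 (6.27% and 16.8% of all genes). With the replicate block 3 members were called with shRNA2. Without the libraries numbered 0 they were 4 with shRNA2 and 5 in the average. Of the 48 other death genes, 5 with shRNA1, 1 with shRNA2, 7 in the average and 0 between the lines were called. The replicate block gave 10, 10, 15 and 1 in that order of comparisons, and leaving out the libraries numbered 0 gave 16, 19, 19 and 3. The share of all genes called rose as well, to 24.6%, 24%, 30.3% and 1.87% with the block and to 34.5%, 37.3%, 41.4% and 8.87% without the libraries numbered 0, against 12.4%, 12.9%, 17.6% and 0.455%. With only the groups compared, 2 were called with shRNA1 and 4 with shRNA2, and without the intensity trend 2 with shRNA2. Leaving out 1 library gave 1 to 8 with shRNA1, 1 to 8 with shRNA2, 1 to 10 in the average and 0 between the lines. Decr2 in the average stayed between -2.01 and -1.81 with 1 library left out. The causes of these shifts were not tested. Signs turned only for results that were not called in either setting. Without the libraries numbered 0, Bax stood at -0.0104 with shRNA1 and -0.0375 in the average, Bcl2l11 at 0.16 with shRNA1, Bcl2 at -0.0217 between the lines and Gsdme at -0.10 between the lines; with centred libraries Gsdme stood at -0.0014 between the lines. With 1 library left out, the log2 fold change with shRNA1 ran from -0.221 to 0.0350 for Bcl2l1, -0.0136 to 0.178 for Bax, -0.146 to 0.0787 for Bid and -0.0961 to 0.0728 for Bcl2l11. With shRNA2 it ran from -0.173 to 0.0466 for Bcl2l1 and -0.00279 to 0.153 for Bak1, and in the average from -0.139 to 0.0408 for Bcl2l1, -0.0395 to 0.0565 for Bax and -0.0226 to 0.131 for Bid. Between the lines it ran from -0.104 to 0.164 for Bcl2l1, -0.128 to 0.0559 for Bak1, -0.0308 to 0.0910 for Casp8, -0.0487 to 0.0631 for Gsdme, -0.0654 to 0.123 for Casp6 and -0.00406 to 0.163 for Ripk1. Decr2, Bcl2l11, Casp6 and Gsdmd gave no value with the lowest 25% of genes removed.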
